A study of Mus musculus with 41 samples.

Results

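Cytosolic ribosomal protein genes were described in microglia (brain macrophages) sorted from the mouse cerebellum. They encode the proteins that, with the ribosomal RNAs, make up the large (60S, symbols Rpl and Rplp) and small (40S, symbols Rps and Rpsa) subunits of the ribosome. The set was chosen by symbol: Rpl or Rps followed by a digit, Rplp0 to Rplp2 and Rpsa. Of 104 matching symbols, 10 were Rps6k kinase genes and 7 carried the ending -ps of pseudogenes, and both were left out. Of the other 87, 83 had at least 10 normalized counts in at least 3 of the 41 libraries and are the members described here, among 24015 genes in all. They are 49 large-subunit and 34 small-subunit symbols, and 7 of them are relatives rather than standard subunits (Rpl7l1, Rpl22l1, Rpl36al, Rpl39l, Rps4l, Rps27l and Rps19bp1). The 4 symbols below the level were Rpl26, Rpl10l, Rpl3l and Rps27rt. Rpl26, a standard protein of the large subunit, was at 0 in all 41 libraries, as were Rpl10l and Rps27rt. Whether reads of Rpl26 were lost in counting was not tested, so the value of 0 is not taken as a lack of its RNA.

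Mutant mice were of strain BALB/cNctr-Npc1m1N/J (NPC), a model of Niemann-Pick type C disease. They lack working Npc1, a protein that exports cholesterol from lysosomes. Their mutation is in the germline, so cells other than microglia carried it too. Libraries of NPC mice covered ages of 1, 3, 6 and 9 weeks (4 per age, 3 at 9 weeks), and wild-type (WT) balb/c mice at the same ages with 4 libraries each. In a separate arm, 5 NPC mice at 9 weeks were given PLX5622, an inhibitor of the receptor Csf1r on which microglia depend, and 5 NPC mice of the same age were its controls. Cells positive for CD11b and Tmem119 were collected, and their RNA was amplified with SMART-seq v4 before sequencing. A value is a normalized count, a gene's reads divided by a size factor of its library. A change is a log2 difference, tested with limma across all genes, and a gene is said to rise or fall where its Benjamini-Hochberg adjusted p was under 0.05. Errors given as ± are SD for group means and standard error (SE) for log2 changes.

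Libraries held between 23.2 and 40.5 recovered reads in units of 1000000. Npc1 averaged 454 to 629 normalized counts in the NPC groups of the time course, against 3293 to 6656 in the WT groups. All 7 microglial markers were present in every group, and the lowest Tmem119 value of a library was 52430. A library of NPC mice at 3 weeks, replicate C, stood apart from its group. It had the lowest sums of the endothelial markers (641) and of the border-associated macrophage markers (10993) of all libraries, and the highest sum of the erythrocyte markers (590, nearly all from Alas2, with all listed globin genes at 0). Counts of members and of listed genes called at 3 weeks between NPC and WT mice are therefore given with and without it.

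Ribosomal protein genes are among the most uniformly controlled genes of an animal cell, and each subunit needs most of its proteins in equal numbers. Their messenger RNAs are known in vertebrates to begin with a cytosine and a run of pyrimidines, the 5′ terminal oligopyrimidine (TOP) motif, through which the kinase complex mTORC1 sets their translation together with that of elongation factors. In microglia as in other macrophages, protein synthesis is known to change with proliferation and activation.

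For members that carry the results below, 15 bases are given on either side of the boundary before the annotated start. Sequences are from RefSeq, build GRCm38.p6, on the gene's own strand, and capitals mark a run of at least 8 C or T bases, or the piece of it inside the window.
Rpl4, chr9:64173372-64173401, plus strand: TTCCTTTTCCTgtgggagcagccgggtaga
Rpl14, chr9:120571502-120571531, plus strand: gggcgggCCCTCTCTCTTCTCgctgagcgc
Rpl35, chr2:39005117-39005146, minus strand: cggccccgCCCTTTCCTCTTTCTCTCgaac
Rpl38, chr11:114668565-114668594, plus strand: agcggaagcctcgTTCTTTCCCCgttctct
Rps6, chr4:86857353-86857382, minus strand: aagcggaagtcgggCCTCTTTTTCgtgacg
Rpsa, chr9:120127751-120127780, plus strand: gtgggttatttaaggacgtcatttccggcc
Rplp0, chr5:115559452-115559481, plus strand: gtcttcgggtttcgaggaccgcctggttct
Rpl7l1, chr17:46782642-46782671, minus strand: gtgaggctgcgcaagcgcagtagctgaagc
The first 5 hold such a run, and the last 3 do not. That of Rpl4 ends before the annotated start. A run near an annotated start was not taken as the TOP motif, nor its lack as the motif's absence. Of the 83 members, 62 were found in the RefSeq promoter table, and 24 of these (38.7%) had a run within 5 bases of an annotated start, against 12.1% of 10707 matched genes at the same level. Counted by start, 24 of 73 member starts (32.9%) had one, against 9.38% of 32851 starts in all. The search read only the gene's strand and only annotated starts, and a match is a description of these letters.

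Members together took between 0.227% and 1.08% of all normalized counts, a 4.75-fold range between libraries. It was 0.786%, 0.862%, 0.643% and 0.785% in NPC mice at 1 week, against 0.759%, 0.669%, 0.690% and 1.08% in WT mice. At 3 weeks it was 0.333%, 0.363%, 0.890% and 0.392% in NPC mice, against 0.227%, 0.295%, 0.303% and 0.294% in WT mice. All NPC libraries lay above all WT libraries at 3 weeks, and replicate C of the NPC mice lay within the range of the 1-week libraries. At 6 weeks the share was 0.311%, 0.452%, 0.486% and 0.336% in NPC mice, against 0.280%, 0.304%, 0.229% and 0.252% in WT mice. At 9 weeks it was 0.547%, 0.384% and 0.454% in NPC mice, against 0.376%, 0.282%, 0.255% and 0.302% in WT mice. The groups did not overlap at 6 or 9 weeks either, but the gaps between the closest libraries were small. As a measure over the members the share was not tested. A 95% Wilson interval for the lowest library, WT 3 weeks replicate A, ran from 0.225% to 0.229% and covers counting error only.

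Large-subunit symbols and small-subunit symbols moved together. The large subunit took 0.448% ± 0.0495 of counts in NPC mice and 0.466% ± 0.108 in WT mice at 1 week, and 0.275% ± 0.0439 in NPC mice and 0.185% ± 0.0299 in WT mice at 9 weeks. The small subunit took 0.321% ± 0.0420 in NPC mice and 0.333% ± 0.0829 in WT mice at 1 week, and 0.186% ± 0.0377 in NPC mice and 0.118% ± 0.0221 in WT mice at 9 weeks (n = 4 each, 3 for NPC mice at 9 weeks). The share of 39 genes of oxidative phosphorylation, which encode subunits of the respiratory chain, was 0.391% in NPC 3-week replicate C and 0.132% to 0.171% in the other NPC libraries of that age, against 0.0888% to 0.128% in WT mice of that age.

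The largest change of these genes was with age in WT mice. Between 1 and 3 weeks 78 of 83 members fell and none rose, where 18.4% of all 14046 genes tested fell and 15.7% rose. The median change of the members was -1.45, against -0.01 over all genes tested. Of the large subunit 46 of 49 fell and of the small subunit 32 of 34. Those that did not pass were Rpl30, Rpl34, Rps27, Rps4l and Rpl7l1, of which the first 3 had mean levels under 30. For all 78 members the libraries of the ages did not overlap, a count that was not made over all genes tested. Markers of other cells moved too: of the microglial markers 6 of 7 rose, of 13 oligodendrocyte markers tested 6 fell, of 13 neuron markers 3 fell and of 12 border-associated macrophage markers 7 fell. The oligodendrocyte sums were 6370 to 7601 normalized counts at 3 weeks, against 5625 to 12681 at 1 week. The border-associated macrophage sums were 19988 to 28596 at 3 weeks, against 17641 to 37600 at 1 week. Their part in the result was not tested. Fewer cells of a type and less RNA per cell cannot be told apart in bulk libraries.

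Rpl32, a protein of the large subunit, had 786, 1340, 1364 and 1206 normalized counts in WT mice at 3 weeks, against 5038, 3576, 4178 and 7128 at 1 week. The ages were far apart in every library. Its change was -2.07 ± 0.35 (SE, adjusted p = 3.78e-05). Rpsa, a small-subunit protein also known as the laminin receptor precursor, had 1336, 1595, 1664 and 1759 normalized counts at 3 weeks, against 5368, 4797, 4661 and 6767 at 1 week. It fell by 1.76 on the log2 scale (SE 0.25, adjusted p = 3.53e-06), again without overlap. Rpl4, whose extension lines the exit tunnel of the large subunit, fell by 1.21 on the log2 scale (SE 0.14, adjusted p = 5.95e-08). The 4 largest falls were those of Rpl39l (-2.34), Rpl32 (-2.07), Rps19 (-2.05) and Rps12 (-2.03). Rpl39l, a paralog of Rpl39 that is enriched in mouse testis, averaged only 5.54 normalized counts at 3 weeks and 39.7 at 1 week.

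In NPC mice 15 of 83 members fell between 1 and 3 weeks and none rose, where 12.8% of all genes tested fell and 12.2% rose. The median change of the members was -0.58, against -0.07 over all genes tested. Rpl4 had 6231, 7618, 9785 and 6680 normalized counts in NPC mice at 3 weeks, against 13413, 12088, 9883 and 10845 at 1 week. All 3-week libraries lay below all 1-week libraries, and the change was -0.62 ± 0.14 (SE, adjusted p = 0.00111). Only 2 of the 15 fell without overlap of the ages, Rpl4 and Rpl10a, again with no such count over all genes. The largest falls among the 15 were those of Rps26 (-0.98), Rps19 (-0.97) and Rps15a (-0.87). The count depended on scaling and tool, with 60 after rescaling to the same total, 24 after quantile normalization, 6 with DESeq2, 5 with edgeR and 0 in a fit of those groups only. Without NPC 3-week replicate C 74 members fell, with a median of -0.98. Without NPC 3-week replicates A, B or D 4, 4 and 5 fell, and without NPC 1-week replicates A, B or D 7, 4 and 8 fell.

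Later ages brought no member past the threshold. None of 83 changed between 6 and 3 weeks or between 9 and 6 weeks in WT mice by limma, edgeR or DESeq2. By limma after adjustment 0.0427% of all genes rose and 0.0142% fell at the first step, and 0% rose and 0.00712% fell at the second. An unadjusted p under 0.05 was seen for 1 and 2 members, with no share over all genes given here at that limit. The median change was -0.03 at 6 against 3 weeks and 0.10 at 9 against 6 weeks. Without WT 6-week replicate C 1 member passed at each step, Rpl10a. In NPC mice likewise none changed at either step by the 3 tools. An unadjusted p under 0.05 was seen for 1 member each, again with no share over all genes at that limit. The medians were -0.28 and 0.21. By limma after adjustment 0.164% of all genes rose and 0.0641% fell at the first step, and 0.178% rose and 0.192% fell at the second. Without NPC 3-week replicate C the first of these medians was 0.12.

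At 1 week no member passed the test between NPC and WT mice. Of 83, 0 passed by limma, edgeR or DESeq2, where 0.876% of all genes tested rose and 0.577% fell by limma after adjustment. An unadjusted p under 0.05 was seen for 0 members, with no share over all genes given here at that limit. The median change was -0.01. A replicate block, which pairs libraries of the same letter, also gave 0. Rpl32 had 5049, 5583, 3758 and 4918 normalized counts in NPC mice, against 5038, 3576, 4178 and 7128 in WT mice. The ranges overlapped, and the interval of its change was -0.73 to 0.71. For Rpl4 the interval was narrower, -0.12 to 0.44.

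At 3 weeks 56 of 83 members rose in NPC mice and none fell, where 14.3% of all genes tested rose and 12.6% fell. The median change was 0.87, against -0.04 over all genes. The risers were 30 of 49 large-subunit and 26 of 34 small-subunit symbols. Without NPC replicate C, 8 of them passed (Rpl4, Rpl12, Rpl13, Rpl15, Rpl36a, Rplp0, Rps2 and Rps9), where 8.92% of all genes rose and 5.75% fell, and the median was 0.45. Without WT replicate A, which had the lowest share, 17 passed. In a fit of the 3-week libraries alone 1 passed, Rpl4. With edgeR and DESeq2 on recovered reads 71 and 73 passed, with no share over all genes given here for those tools. Of 7 microglial markers 4 fell and 1 rose, and of 12 border-associated macrophage markers 4 rose, with sums of 10993 to 31892 in NPC mice and 19988 to 28596 in WT mice. Of 13 astrocyte markers 3 rose and 1 fell, with sums of 16541 to 22188 in NPC mice and 18439 to 26975 in WT mice, and Gfap was at 171 to 386 in NPC mice, against 34.1 to 53.7 in WT mice. Of 13 monocyte and neutrophil markers tested 2 rose and 1 fell, with sums of 357 to 898 in NPC mice and 383 to 546 in WT mice. Without NPC replicate C, 1 microglial marker fell and none rose, 6 border-associated macrophage markers rose, 2 astrocyte markers rose and 1 fell, and 1 monocyte and neutrophil marker fell. Their part in the result was not tested.

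Rpl38, a large-subunit protein known in mouse embryos for its part in the translation of Hox genes, rose most. It had 316, 387, 1287 and 465 normalized counts in NPC mice, against 152, 261, 232 and 224 in WT mice. All 4 NPC libraries lay above all WT libraries, with replicate C far above the rest. The change was 1.29 ± 0.35 (SE, adjusted p = 0.00969), and with 1 library left out its adjusted p reached 0.0647.

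Rpl4 had 6231, 7618, 9785 and 6680 normalized counts in NPC mice, against 4144, 4779, 4748 and 4227 in WT mice. The groups were well apart in every library. It rose by 0.74 ± 0.14 (SE, adjusted p = 0.000279), and its adjusted p stayed at or under 0.00184 whichever library was left out.

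Rplp0, the protein that anchors the stalk where elongation factors bind, had 3158, 4060, 10578 and 3859 normalized counts in NPC mice, against 2315, 2838, 2545 and 2555 in WT mice. Its change was 0.90 ± 0.24 (SE, adjusted p = 0.00667), and the groups did not overlap. The other stalk proteins Rplp1 and Rplp2 also rose, by 1.13 and 0.92 on the log2 scale, but their libraries overlapped. Rps20, of the small subunit, had 844, 1004, 3364 and 963 normalized counts in NPC mice, against 409, 599, 677 and 731 in WT mice. It rose by 1.12 ± 0.31 (SE, adjusted p = 0.00881), and with 1 library left out its adjusted p reached 0.0541. Rps12 (1.26), Rpl36a (1.22) and Rpl32 (1.20) completed the 4 largest rises.

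Members that did not pass at 3 weeks included Rpl7l1 (0.10), Rpl10a (0.21), Rpl29 (0.19), Rps4l (0.23) and Rps19bp1 (0.32). Rpl34 went the other way without passing, with 34.4, 6.4, 7.80 and 12.6 normalized counts in NPC mice, against 41.4, 41.8, 27.0 and 38.4 in WT mice.

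The change at 3 weeks was larger than that at 1 week by a median of 0.91 over the members (0.48 without NPC 3-week replicate C), but the test of that difference passed for none of 83 with limma and none with edgeR. DESeq2 called 7 (Rpl9, Rpl12, Rpl15, Rpl32, Rplp0, Rps9 and Rps12), and 54 had an unadjusted p under 0.05 in limma. Over all genes 0.861% rose more and 0.199% less at 3 weeks by limma after adjustment. No such share is given here for DESeq2 or for the unadjusted p.

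At 6 weeks 16 of 83 members rose in NPC mice and none fell, where 8.76% of all genes rose and 6.5% fell, and the median change was 0.63 against -0.02 over all genes. At 9 weeks 18 rose and none fell, where 11.2% of all genes rose and 7.77% fell, and the median was 0.69 against 0.03. The 12 members that rose at 3, 6 and 9 weeks were Rpl3, Rpl4, Rpl6, Rpl8, Rpl12, Rpl13, Rpl14, Rpl19, Rpl32, Rps2, Rps20 and Rpsa. A share of all genes that rose at all 3 ages is not given here. Of the 12, only Rpl4, Rpl12, Rpl13 and Rps2 passed at 3 weeks without NPC 3-week replicate C. Only Rpl4 passed at 6 weeks without NPC replicate B or C, and only Rpl4 and Rpl14 at 9 weeks without NPC replicate A. Members that rose at 6 and not at 3 weeks were Rpl10a and Rpl22l1, a paralog of Rpl22.

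Rpl32 had 1499, 2766, 3041 and 1652 normalized counts in NPC mice at 6 weeks, against 1010, 1298, 821 and 1065 in WT mice. At 9 weeks it had 3483, 1932 and 2560 in NPC mice, against 1766, 960, 927 and 1130 in WT mice. The groups did not overlap at either age, and within NPC mice replicates B and C at 6 weeks and A at 9 weeks were highest. Its changes, 1.05 ± 0.35 at 6 weeks (SE, adjusted p = 0.0420) and 1.16 ± 0.38 at 9 weeks (adjusted p = 0.0305), were the largest at both ages.

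Rpsa had 1978, 3350, 3400 and 1817 normalized counts in NPC mice at 6 weeks, against 1541, 1674, 1272 and 1479 in WT mice, and rose by 0.77 ± 0.25 (SE, adjusted p = 0.0371). At 9 weeks it had 3702, 2413 and 3133 in NPC mice, against 1821, 1506, 1319 and 1600 in WT mice, and rose by 0.97 ± 0.27 (adjusted p = 0.0120). The groups did not overlap at either age. Rpl14, another large-subunit protein, rose by 0.87 at 6 weeks and 1.15 at 9 weeks, and Rps20 by 1.04 and 1.11. Rps19, mutated in human Diamond-Blackfan anaemia, rose at 9 weeks by 1.04 and had 0.81 at 6 weeks, where it did not pass. Rpl35 rose by 1.15 at 3 weeks and 1.02 at 9 weeks, and Rps6, the target of the S6 kinases, by 0.79 at 9 weeks.

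Rpl4 had 6436, 8309, 8614 and 6124 normalized counts in NPC mice at 6 weeks, against 4736, 5500, 3993 and 4700 in WT mice, and 8770, 8050 and 7966 in NPC mice at 9 weeks, against 5316, 4407, 4423 and 4834 in WT mice. Its changes were 0.63 ± 0.14 (SE, adjusted p = 0.00155) and 0.80 ± 0.15 (adjusted p = 0.000201). With any 1 library left out its adjusted p reached at most 0.0124 at 6 weeks and 0.00273 at 9 weeks.

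The counts at both ages rest on single libraries. At 6 weeks 2 members passed (Rpl4 and Rpl10a) without WT replicate C, without NPC replicate B or without NPC replicate C, 4 without WT replicate D, 10 without WT replicate A, and none without both NPC B and C, with a median of 0.24. At 9 weeks 2 passed (Rpl4 and Rpl14) without NPC replicate A, 8 without WT replicate B, 7 without WT replicate C, 9 without WT replicate D and 7 without NPC replicate C. Markers of other cells differed as well. The 14 oligodendrocyte markers summed to 19867 and 17201 normalized counts in NPC 6-week B and C and 17601 in NPC 9-week A, against 5542 to 10116 in WT mice at 6 weeks and 6762 to 7118 at 9 weeks. Of the 13 tested, none passed at 6 weeks and 1 rose at 9 weeks, and Opalin was at 0 in all NPC libraries of both ages, Mal in those of 6 weeks and Cldn11 in those of 9 weeks. The 13 astrocyte markers summed to 18753 to 26053 in NPC mice and 21702 to 23904 in WT mice at 6 weeks, with 3 higher and 1 lower, and Gfap reached 2561 and 2053 in NPC B and C, against 34.8 to 107 in WT mice. At 9 weeks 2 astrocyte markers rose, with sums of 17791 to 22350 in NPC mice and 15609 to 19079 in WT mice. Of 12 border-associated macrophage markers 4 rose and 2 fell at 6 weeks, with sums of 21099 to 28308 in NPC mice and 11826 to 23825 in WT mice. At 9 weeks 5 rose and none fell, and their sums did not overlap, at 29632 to 31332 in NPC mice and 19566 to 24764 in WT mice. Of 7 microglial markers 3 fell at 6 weeks and 4 at 9 weeks, with sums of 992564 to 1260900 in NPC mice at 9 weeks and 1554090 to 1807570 in WT mice, again without overlap. Their part in the result was not tested.

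Relatives of ribosomal proteins differed among themselves. Rpl7l1, a relative of Rpl7 with a place in assembly of the large subunit, had 4334, 5188, 5156 and 4100 normalized counts in NPC mice at 3 weeks, against 4254, 4246, 4139 and 4763 in WT mice. The groups overlapped, and its changes in NPC mice were 0.10, -0.16 and -0.12 at 3, 6 and 9 weeks, with none passing. Its partner Rpl7 rose at 3 weeks by 0.77 (adjusted p = 0.0165), but did not pass without NPC 3-week replicate C. In WT mice between 1 and 3 weeks Rpl7l1 had 0.01 (interval -0.24 to 0.27), while Rpl7 fell by 1.12.

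Rps27l, a relative of Rps27 that is induced by p53, followed the other members. It had 727, 728, 2504 and 986 normalized counts in NPC mice at 3 weeks, against 449, 612, 717 and 613 in WT mice. It rose by 0.86 ± 0.30 (SE, adjusted p = 0.0340), and with 1 library left out its adjusted p reached 0.231. Rpl22l1 had 0.71 at 3 weeks (adjusted p = 0.0660) and rose at 6 weeks by 0.88, while Rpl22 rose at 3 weeks by 0.66. Rps4l had changes of 0.23, -0.10 and -0.08 in NPC mice, while its relative Rps4x rose at 3 weeks by 0.76. Neither Rpl22 nor Rps4x passed at 3 weeks without NPC 3-week replicate C. Rps19bp1, a binding partner of Rps19 and no part of the ribosome, fell by 0.52 in WT mice between 1 and 3 weeks and did not pass in any comparison of NPC with WT mice. Rpl36al had 0.61 at 3 weeks, where Rpl36a rose by 1.22. Without the 7 relatives 55 of the other 76 members rose at 3 weeks.

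After the library average of the members was taken off, the median member varied by an SD of 0.18 on the log2 scale, against 0.65 before. The most uneven were Rpl34 (1.27), Rpl39l (1.05), Rps27 (1.01), Rpl7l1 (0.65) and Rpl30 (0.63). All but Rpl7l1 of these had mean levels under 30 normalized counts. Rps13 (0.10), Rpl13, Rps27a and Rps3a1 were among the most even.

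Rpl34 was lower in NPC mice at every age without passing, by -0.79, -1.50, -1.43 and -1.63 at 1, 3, 6 and 9 weeks. At 9 weeks it had 12.2, 14.9 and 17.7 normalized counts in NPC mice, against 71.6, 41.9, 40.7 and 42.7 in WT mice. The groups did not overlap, but the adjusted p was 0.102. It had 0 normalized counts in 1 library, NPC 6-week replicate C.

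Levels of the members spread widely. Their median mean was 1259 normalized counts, against 506 over 14312 genes at the level, with 56 members at 1000 or more and 5 under 100. Rpl4 (7578) was highest, and Rps9 (6221), Rps3 (6121) and Rpl13 (6059) were among the highest. Rpl29 (99.0), Rpl34 (29.0), Rpl39l (21.4), Rps27 (7.33) and Rpl30 (6.93) were lowest. Per kilobase of median transcript length, Rpl13 (7768), Rps9 (7554) and Rps3 (6430) were among the highest, and Rpl29, Rpl34, Rpl39l, Rps27 and Rpl30 were again lowest, with Rpl30 at 12.2.

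Ribosomal protein genes have many processed copies in the mouse genome, and reads shared with a copy can be lost or split in counting. Of the 83 members, 75 shared at least 1 stretch of 100 bases with another gene of the annotation, and 35 shared over 50% of such stretches. Rps27 shared 98.4% and Rpl30 53.5%, and Rpl13 shared 78.9% and Rpl10 91.6% at levels of 7768 and 4570 per kilobase. The rank correlation over members of level per kilobase with the percent shared was -0.10. Loss of shared reads in counting was not tested. The 7 symbols with the ending -ps were low, with a highest value of 87.1 for Rpl14-ps1. Levels of single members that share stretches with other genes are uncertain.

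Members are short, with a median transcript of 714 bases against 2135 for genes at the level, and 68 of 83 are under 1000 bases. Of 2429 other genes under 1000 bases 21.9% rose and 8.93% fell in NPC mice at 3 weeks, and 30.1% fell and 9.10% rose in WT mice between 1 and 3 weeks. After a trend on transcript length was taken off each library, 47 members rose at 3 weeks, 7 at 6 weeks and 11 at 9 weeks in NPC mice. In WT mice 74 fell between 1 and 3 weeks, with a median of -1.03. Shares over all genes with the trend taken off are not given here. In the main fit 8.76% and 11.2% of all genes rose at 6 and 9 weeks, so the counts of 7 and 11 cannot be told from such a background.

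Other genes of translation moved with the members in part. Their counts at 3 weeks stand against 14.3% of all genes that rose and 12.6% that fell, or 8.92% and 5.75% without NPC 3-week replicate C. Of the ribosomal proteins named outside the rule, Gnb2l1 (the scaffold Rack1) rose at 3 weeks by 0.86 (0.49 without that library, where it still passed), Fau had 0.83 without passing, and both fell in WT mice between 1 and 3 weeks. Of 16 elongation factors and other TOP genes 12, 5 and 8 rose in NPC mice at 3, 6 and 9 weeks and none fell, and 14 fell in WT mice between 1 and 3 weeks. Without NPC 3-week replicate C 6 of the 16 rose at 3 weeks. Eef1a1, which brings transfer RNA to the ribosome, had 23499.8, 25659.8, 61645.4 and 26294.5 normalized counts in NPC mice at 3 weeks, against 14392 ± 1164 in WT mice (SD, n = 4). Every NPC library was above every WT library, and replicate C was far above the rest. It rose by 1.13, 1.01 and 1.14 at 3, 6 and 9 weeks, and by 0.81 at 3 weeks without replicate C. Eef2, which moves the ribosome along, rose by 0.38, 0.62 and 0.79. Pabpc1, which binds the poly(A) tail, had 0.28 at 3 weeks, rose by 0.51 there without replicate C, and rose by 0.84 and 1.00 later.

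Of 39 oxidative phosphorylation genes 26 rose at 3 weeks (2 without NPC 3-week replicate C), none at 6 weeks and 2 at 9 weeks (Ndufa1 and Cox4i1), and 38 fell in WT mice between 1 and 3 weeks. Of 77 mitochondrial ribosomal protein genes 15 rose at 3 weeks (2 without that library), and 42 fell between 1 and 3 weeks in WT mice. Of 24 initiation factors 9 rose and 1, Eif4a2, fell at 3 weeks, and without that library 2 rose and none fell. Genes of ribosome biogenesis, which make and assemble the subunits, numbered 47, of which 6 rose and 3 fell at 3 weeks, with a median of 0.02, shares below those over all genes. Without that library 4 rose and none fell. Nhp2 and Nop10, of the particles that modify ribosomal RNA, rose by 0.91 and 0.84, and Nop56 fell by 0.49, and none of these passed without it.

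Of 20 genes of growth control 1 rose and 7 fell in NPC mice at 3 weeks, and without NPC 3-week replicate C none rose and 3 fell (Sesn1, Sesn2 and Mxd4). Eif4ebp1, an inhibitor of initiation that mTORC1 switches off, rose by 0.80. Sesn1 and Sesn2, inhibitors of mTORC1, fell by 0.73 and 0.51, as did Tsc1 (-1.57), the Myc antagonists Mxd1 (-0.79) and Mxd4 (-0.45), and the S6 kinases Rps6kb1 (-0.86) and Rps6kb2 (-0.89). Tsc1, whose product restrains mTORC1, had 849, 423, 35.1 and 511 normalized counts in NPC mice, against 830, 835, 849 and 876 in WT mice. Replicate C was by far the lowest and replicate A lay among the WT libraries. Without replicate C the change of Tsc1 was -0.58, that of Rps6kb1 -0.47, that of Rps6kb2 -0.47 and that of Mxd1 -0.36, none of which passed. Myc, a regulator of ribosome genes, had -0.19 at 3 weeks and rose by 1.00 at 9 weeks. Mtor itself had -0.98 at 3 weeks without passing (adjusted p = 0.0775), and -0.31 without replicate C.

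PLX5622 changed no member past the threshold. Of 82 members tested (all but Rpl30) 0 passed with limma and edgeR, and DESeq2 called 1, Rpl4, where 0.637% of 12877 genes rose and 0.311% fell by limma. At an unadjusted p under 0.05 there were 4 members, with no share over all genes given here at that limit. The median change was 0.08. The share was 0.540%, 0.610%, 0.511%, 0.455% and 0.480% in treated mice, against 0.616%, 0.535%, 0.441%, 0.460% and 0.443% in controls, with wide overlap. The monocyte and neutrophil markers summed to 804 to 120602 normalized counts in treated mice and 341 to 6524 in controls, with none of 14 past the threshold. Of 9 border-associated macrophage markers tested 2 rose, with sums of 38253 to 66714 in treated mice and 27743 to 41407 in controls. Of 12 astrocyte markers tested 1 fell, with sums of 11628 to 19043 in treated mice and 15644 to 23722 in controls. The part of these markers was not tested.

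Rpl4 had 8778, 9298, 8052, 9209 and 9317 normalized counts in treated mice, against 7977, 7905, 7133, 7483 and 7448 in controls. Every treated library was above every control, and the change was 0.23 (interval 0.05 to 0.41, adjusted p = 0.214). Rpsa had 4245, 4306, 3566, 3587 and 3457 normalized counts in treated mice, against 3399, 3336, 2916, 2959 and 3021 in controls, also without overlap, with a change of 0.29 (interval 0.08 to 0.50, adjusted p = 0.196). Rpl32 overlapped widely, with a change of 0.02 (interval -0.35 to 0.40). Of the growth control genes Myc rose in treated mice by 0.99 (adjusted p = 0.00703). The share averaged 0.499% ± 0.0761 in the controls of the arm (SD, n = 5) and 0.462% ± 0.0815 in the untreated NPC mice of the same age (n = 3), set side by side without a test.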

How the data were processed

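RNA from sorted cerebellar microglia was sequenced in 41 libraries, of which 31 form the time course and 10 the PLX5622 arm. The authors deposited counts per gene divided by a size factor of the library, a normalized signal. FastQC 0.11.4, STAR 2.5.1b, DESeq2 and build mm9 are named per the submitters' processing notes, and the annotation and the counting tool are not given in the sources used here. Values were whole multiples of a library's step for 100% of values above 0 (tolerance 1e-06), so whole reads were recovered for count tests. Every column was used.

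Tests were made with limma 3.58.1 (R 4.3.3) on log2(value + 1), so changes of low genes are understated, after genes below 10 normalized counts in all but 2 or fewer libraries were left out. Time course and PLX5622 arm were fitted apart, with Benjamini-Hochberg adjustment over all genes tested. Alternatives were count tests of the recovered reads (edgeR 4.0.16, DESeq2 1.42.0), another pseudocount (10), no filter, rescaling, quantile normalization, a length trend taken off, fits of the groups compared only, members without the relatives, a replicate block and leaving out each library. The scripts were tested on simulated data. Replicate letters pair libraries by the rule used (all correlations of deviations over 0.1) at 1 week in NPC against WT mice, with 0.111 to 0.163 over 4 pairs, and the blocked fit gave 0 members there. Intervals of log2 changes are limma's at 95% and rest on the spread between libraries. The series' design text gives group sizes as mice, and each library was taken as 1 mouse.

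The members and lists were chosen with earlier results of these data known. Genes named are the highest and lowest by level, the stalk proteins and Rpsa, the relatives with their partners, the most uneven members and those with the largest changes past the threshold. Genes named as shared between ages, as most even or as passing under 1 setting were chosen after their values were seen. Transcript lengths are medians over the protein-coding transcripts of the reference annotation and were matched by symbol, since the files' coordinates (mm9) were not used. Values of a few genes are not reported here by name, though the counts over all members include them. Leaving NPC 3-week replicate C out of the counts of the other gene lists was chosen after seeing the data.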

Additional observations from a re-analysis of the deposited data

Results flagged for a closer look

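Each quantity was examined in each of several groups of libraries, which gave 108 sets of values. Of these, 15 held a library far from the others of its group, by the gap to its nearest neighbour over the group's range. Chance gives about 1 in 20 for a single set. The sets are not independent, because the share contains its subunit parts and the members, and the same library was flagged for several quantities. The count of 15 therefore cannot be compared with that rate.

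NPC 3-week replicate C stood above its group in the share of all counts (0.8898%), the large-subunit share (0.4831%) and the small-subunit share (0.4066%). It was also far above its group for Rplp0 (10578 normalized counts), Rpl32 (8219.8), Rpsa (6601.3), Rps20 (3364.4), Rps27l (2503.8) and Rpl38 (1287.0). WT 3-week replicate A stood below its group in the share (0.2271%), the large-subunit share (0.1414%) and the small-subunit share (0.0857%).

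WT 1-week replicate D stood above its group for Rpl38 (1337.2 normalized counts). WT 9-week replicate A stood above its group for Rpl7l1 (5280.5) and Rpl34 (71.6).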

How the results depend on the processing

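No count of members called turned its direction under the alternatives run. Medians turned sign, with 1 library left out, in 4 comparisons with no member called: NPC against WT mice at 1 week (-0.11 to 0.17), WT mice at 6 against 3 weeks (-0.17 to 0.08) and at 9 against 6 weeks (-0.02 to 0.20), and NPC mice at 6 against 3 weeks (-0.48 to 0.12). The first 3 also turned with the length trend taken off. The log2 ratio of the share turned at 1 week (-0.11 to 0.12) and in NPC mice at 6 against 3 weeks (-0.37 to 0.105). Of 225 counts of members called, 190 stayed within 1.5 times of the reported count and 35 moved beyond it. The 190 include settings of the comparisons with no member called, where a count of 0 stayed 0. Of 225 medians 223 and of 110 ratios of the share 110 moved by less than the spread between replicates. That spread is the SD within the groups compared. Leaving out 1 library cannot move a ratio of the share by more than it, so those settings say nothing on stability. At 3 weeks in NPC against WT mice the log2 ratio of the share ran from 0.38 to 0.85 with 1 library left out. In NPC against WT mice at 3 weeks the count of 56 was 1 in a fit of those groups only, and 8 to 74 with 1 library left out. At 6 weeks the count of 16 was 10 with no filter, 7 with the length trend taken off, 2 to 23 with 1 library left out, and 0 (median 0.24) without NPC replicates B and C, a choice made after seeing the data. At 9 weeks the count of 18 was 11 with the length trend taken off, 62 in a fit of those groups only and 2 to 25 with 1 library left out. In WT mice between 1 and 3 weeks the count was 74 to 78 with 1 library left out, and the median was -1.03 with the length trend taken off. In NPC mice between those ages the count of 15 was 60 after rescaling, 24 after quantile normalization, 6 with the length trend taken off, 5 with edgeR, 6 with DESeq2, 0 in a fit of those groups only and 4 to 74 with 1 library left out. The counts of 0 in WT mice at 6 against 3 and at 9 against 6 weeks were 0 to 1 with 1 library left out. DESeq2 gave 7 for the difference between the changes at 3 weeks and 1 week and 1 for PLX5622. The cause was not tested.

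With a replicate block 65, 18 and 17 members passed in NPC against WT mice at 3, 6 and 9 weeks, 78 in WT mice between 1 and 3 weeks and 13 in NPC mice, and 0 in the other comparisons. Apart from the 1-week comparison, libraries with the same letter or number did not all pass the rule for pairs, with correlations from -0.215 to 0.267. In NPC mice at 6 against 3 weeks the 4 pairs ran from 0.099 to 0.212, and in the PLX5622 arm 5 pairs ran from -0.148 to 0.267. Whether letters or numbers mark a shared batch there was not tested. Counts near the threshold are limited by 3 to 5 libraries per group, and 5 members with mean levels under 100 normalized counts by depth.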
